A study of Mus musculus with 7 samples.

Results

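The Schlafen genes of the mouse are a small family on chromosome 11, and 7 of its members (Slfn1, Slfn2, Slfn3, Slfn4, Slfn5, Slfn8 and Slfn9) are described here across 7 RNA-seq libraries. The members were taken by gene symbol and not by their measured values, from the 56953 genes of the deposited tables, although earlier results of these data were known. All 7 had a row there, and 5 of them had enough counts to enter the test over 13990 genes. Slfn1 and Slfn4 did not.

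The libraries came from tumours grown from B16, a transplantable mouse melanoma line, and taken 5 days after treatment. Live cells without CD45, the common leukocyte surface protein, and without CD31, an endothelial surface protein, were sorted before RNA extraction. In 3 libraries the mice had received radiotherapy (RT) at 8 Gy and AAV-iIL12, an adeno-associated virus vector named for interleukin 12. In 4 libraries they had received the same 8 Gy and AAV-iLuc, the control vector. Both groups were therefore irradiated and both carried a vector, so neither is untreated. The titles of the AAV-iIL12 libraries carry the tag WT and those of the AAV-iLuc libraries carry no such tag. Mouse strain, age, vector dose and the cells that expressed the vector are not given in the sources used here. The number of mice in each group, as the design text gives it, equals the number of libraries. In these bulk samples, fewer cells of a type and less RNA per cell cannot be told apart.

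Schlafen proteins are found in mammals as short, intermediate and long forms that share an amino-terminal core able to bind or cut RNA. The long forms add a helicase-like carboxy-terminal part, and human SLFN11, the best known of them, binds stalled replication forks and cleaves transfer RNA in cells under DNA damage or viral infection. Many members are induced by interferons, and Slfn2 is known from mice in which its loss breaks the quiescence of T cells. Of the members described here, Slfn1 and Slfn2 are short, Slfn3 and Slfn4 intermediate, and Slfn5, Slfn8 and Slfn9 long. Their coding sequences, taken from the longest coding transcript of each gene in GENCODE vM21, measured 1011 and 1134 bases (Slfn1 and Slfn2), 1920 and 1806 bases (Slfn3 and Slfn4), and 2652, 2730 and 2730 bases (Slfn5, Slfn8 and Slfn9).

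The 250 bases before the RefSeq start of each member were read on GRCm38.p6, and all 7 members had such a window. They were searched on both strands for the core of the interferon-stimulated response element, taken as GAAA, any 2 bases and GAAA again, and for TTCNNNGAA, the gamma-activated sequence of genes induced by interferon gamma. The first motif was present in the windows of the 3 long members and in none of the windows of Slfn1, Slfn2, Slfn3 and Slfn4. The second was in none of the 7. Of 32851 windows of the same length from 27025 genes, 2.98% held the first motif and 7.02% the second. The windows of the 3 long members are shown because they hold the first motif, and that of Slfn3 because it is the member that fell. Capitals mark the motif, all letters run 5′ to 3′ along the strand of the gene, and the coordinates are chr11:83020811-83021060 (minus strand) for Slfn8, chr11:82991831-82992080 (minus strand) for Slfn9, chr11:82951852-82952101 (plus strand) for Slfn5 and chr11:83191080-83191329 (plus strand) for Slfn3.
Slfn8: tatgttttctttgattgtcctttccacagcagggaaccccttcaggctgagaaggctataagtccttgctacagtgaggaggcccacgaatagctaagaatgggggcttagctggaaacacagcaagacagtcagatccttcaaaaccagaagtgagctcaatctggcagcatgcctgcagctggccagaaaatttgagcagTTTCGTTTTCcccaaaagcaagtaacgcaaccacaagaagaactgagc
Slfn9: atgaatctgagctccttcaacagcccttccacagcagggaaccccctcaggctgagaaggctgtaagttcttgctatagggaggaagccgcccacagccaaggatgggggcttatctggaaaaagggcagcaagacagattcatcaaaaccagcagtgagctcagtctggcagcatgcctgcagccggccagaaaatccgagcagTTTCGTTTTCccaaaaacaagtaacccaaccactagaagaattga
Slfn5: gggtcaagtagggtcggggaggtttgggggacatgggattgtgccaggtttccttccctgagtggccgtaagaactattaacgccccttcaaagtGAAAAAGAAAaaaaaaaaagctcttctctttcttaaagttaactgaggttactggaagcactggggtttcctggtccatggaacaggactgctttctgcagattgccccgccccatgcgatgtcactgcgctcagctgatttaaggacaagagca
Slfn3: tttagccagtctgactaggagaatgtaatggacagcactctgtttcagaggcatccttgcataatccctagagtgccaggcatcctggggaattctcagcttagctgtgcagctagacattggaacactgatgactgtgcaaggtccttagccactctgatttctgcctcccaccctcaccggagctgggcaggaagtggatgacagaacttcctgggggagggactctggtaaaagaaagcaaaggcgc
In Slfn8 the match lay 48 to 39 bases before the start, and in Slfn9 the same 10 letters, TTTCGTTTTC, lay 45 to 36 bases before it. RefSeq gives Slfn8 a second start, for which the same match lay 136 to 127 bases upstream. The match in Slfn5, GAAAAAGAAA, lay 155 to 146 bases before the start. The windows of Slfn8 and Slfn9 were identical at 206 of 242 aligned bases, or 85.1%. These are matches of letters in a fixed window and say nothing of which factor was bound. The files hold RNA counts, so binding and chromatin at these windows were not analysed here.

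Total counts ranged from 16356653 to 19080587 per library, so 1 count was worth 0.0515 to 0.0608 CPM (the usual count scaled to sequencing depth, here with library totals adjusted by the trimmed mean of M values, TMM). Markers of the melanocyte lineage dominated both groups: they summed to 27800 to 28700 CPM with AAV-iIL12 and to 22800 to 26000 CPM with AAV-iLuc. All 7 were tested: 3 rose, Pmel among them, and 4 did not pass, with a median log2 fold change of 0.1. The genes of the sorting markers were low: Ptprc (CD45) was at 0.0595 to 2.44 CPM over the 7 libraries and did not pass the test, and Pecam1 (CD31) was at most 0.3635 CPM. Of the 10 leukocyte markers, 9 were tested and 2 rose (Ptpn6 and Arhgdib). The median log2 fold change of the 9 was 0.77, against -0.01 over all genes tested. The summed level of the 10 was 554 to 648 CPM against 385 to 411 CPM, nearly all of it from Ptpn6, Arhgdib and Lcp1. The other 7 leukocyte markers summed to 11.1, 7.0 and 4.66 CPM in AAV-iIL12 replicates 1 to 3. In AAV-iLuc they summed to 10.8 CPM in replicate 1 and to 1.43 to 2.68 CPM in replicates 2 to 4. AAV-iLuc replicate 1 therefore stood apart from its group in this measure, and member results that move without it are given both ways. The 14 T and NK cell markers summed to 6.59 to 10.3 CPM against 1.81 to 4.52 CPM, mostly from Lck, the 1 of them that was tested and that rose, and Cd3e was at 0 in all AAV-iLuc libraries and at most 0.1825 CPM in AAV-iIL12. The 15 myeloid markers summed to 26.6 to 43.5 CPM against 16.8 to 35.8 CPM. Of the 9 tested, 1 (C1qb) rose, and their median log2 fold change was 0.6. Lyz2 and Csf1r did not pass. Of 7 endothelial markers, Cdh5, Emcn and Tie1 were at 0 in all libraries, the sum was 7.48 to 8.4 CPM against 13.5 to 16.4 CPM, and Egfl7, the 1 tested, fell. The 8 fibroblast markers summed to 58.2 to 158 CPM against 84.2 to 290 CPM. None of them passed the test, and their median log2 fold change was -0.16. By the same test, 23.5% of all genes tested rose and 23.7% fell.

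Of the 5 Schlafen genes tested, Slfn8 and Slfn2 were higher in AAV-iIL12 tumours, Slfn3 was lower, and Slfn5 and Slfn9 did not pass the test (quasi-likelihood F test of edgeR, p adjusted by Benjamini-Hochberg over 13990 genes, threshold 0.05). Calls were common in this comparison: 47.2% of all genes tested passed the same threshold, 23.5% higher and 23.7% lower. The count of 3 of 5 lies near that share and is no result about the family as such, so the members are described one by one. The median log2 fold change of the 5 was 1.25, against -0.01 over all genes tested. The groups did not overlap for Slfn8 and Slfn3, 2 of the 5, where 52.5% of all genes tested had groups that did not overlap.

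**Figure D1:**
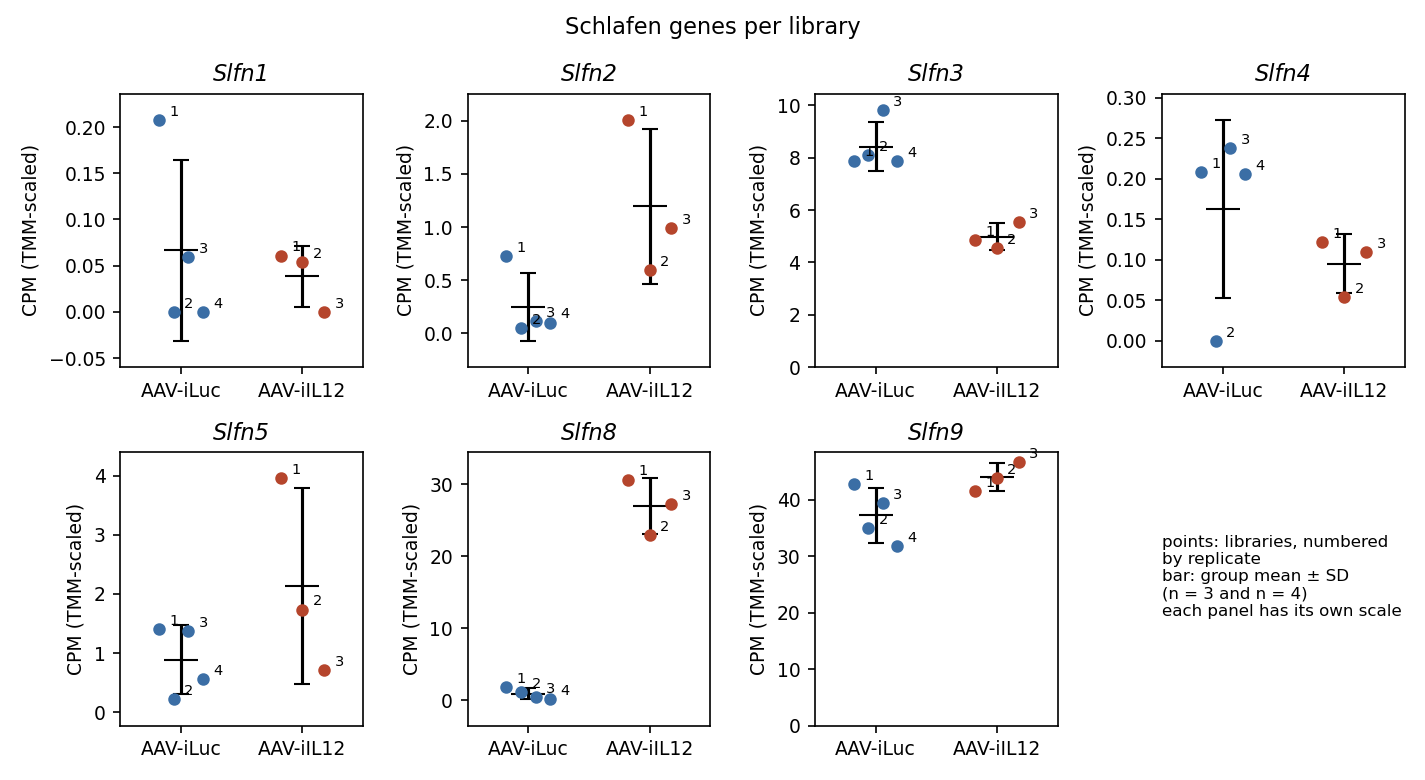
TMM-scaled CPM of the 7 Schlafen genes (y axis, its own scale in each panel) in the 4 AAV-iLuc and 3 AAV-iIL12 libraries; points are libraries numbered by replicate and bars are the group mean with SD. Slfn8 lies between 22.95 and 30.7 CPM in AAV-iIL12 and at or below 1.87 CPM in AAV-iLuc, Slfn3 is lower in all AAV-iIL12 libraries, and the groups overlap in the other panels.

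Among the long members, Slfn8 moved most. Slfn8 (ENSMUSG00000035208, chromosome 11, 82892984 to 82911636, minus strand, GRCm39) is a mouse relative of human SLFN11 and SLFN13. Its counts were 504, 423 and 497 in AAV-iIL12 replicates 1 to 3 and 36, 20, 7 and 4 in AAV-iLuc replicates 1 to 4. On the CPM scale these were 30.7, 22.95 and 27.3 against 1.87, 1.095, 0.4165 and 0.206. Every AAV-iIL12 library lay above every AAV-iLuc library, and the AAV-iLuc values themselves were spread widely around a low level. The mean was 27.0 ± 3.87 CPM (SD, n = 3) against 0.897 ± 0.751 CPM (SD, n = 4), a log2 fold change of 4.88 ± 0.35 (SE) or 29.5-fold (edgeR adjusted p = 5.11e-06). Of 13990 genes, 71 had a larger rise.

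Left without AAV-iLuc replicate 1, the log2 fold change of Slfn8 was 5.55 ± 0.3 (SE), or 46.9-fold (edgeR adjusted p = 7.22e-07). That library had 10.8 CPM of the 7 less abundant leukocyte markers and 1.87 CPM of Slfn8. With the level of those 7 markers as a covariate, chosen after seeing the data, Slfn8 had a log2 fold change of 4.47 (edgeR adjusted p = 1.91e-05). With the planned covariate from all 10 leukocyte markers it was 4.02 and did not pass (edgeR adjusted p = 0.346). That covariate left 1 gene called in the whole series. Whether leukocyte content had a part in the change of Slfn8 was not tested.

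Slfn9 (ENSMUSG00000069793, 82869216 to 82882656, minus strand) is the neighbour and closest relative of Slfn8, but the difference between the groups was small. Its counts were 684, 808 and 851 in AAV-iIL12 and 824, 639, 663 and 617 in AAV-iLuc, or 41.6, 43.8 and 46.7 CPM against 42.8, 35, 39.4 and 31.8 CPM. AAV-iLuc replicate 1 lay inside the range of the AAV-iIL12 libraries and the other AAV-iLuc libraries lay below it. The means were 44.1 ± 2.55 CPM (SD, n = 3) and 37.2 ± 4.86 CPM (SD, n = 4). The log2 fold change of 0.24 ± 0.1 (SE), or 1.18-fold, did not pass (edgeR adjusted p = 0.0667), and without AAV-iLuc replicate 1 it was 0.32 and passed (edgeR adjusted p = 0.0172).

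Slfn5 (ENSMUSG00000054404, 82842175 to 82855666, plus strand), whose human counterpart has been studied as an interferon-induced nuclear protein in melanoma cells, was low in both groups and uneven within them. Its counts were 65, 32 and 13 against 27, 4, 23 and 11, or 3.96, 1.74 and 0.713 CPM against 1.4, 0.219, 1.37 and 0.566 CPM. AAV-iIL12 replicates 1 and 2 lay above all AAV-iLuc libraries and replicate 3 lay among them. The log2 fold change was 1.25 ± 0.62 (SE) and did not pass (edgeR adjusted p = 0.124). It rested on single libraries in both directions. Without AAV-iIL12 replicate 1 it was 0.47 (edgeR adjusted p = 0.578). Leaving out AAV-iIL12 replicate 3 gave 1.67, which passed (edgeR adjusted p = 0.0452). Leaving out AAV-iLuc replicate 1 gave 1.58, which did not pass (edgeR adjusted p = 0.0836). The 7 less abundant leukocyte markers were also highest in AAV-iIL12 replicate 1 (11.1 CPM) and lowest of the group in replicate 3 (4.66 CPM). In AAV-iLuc they did not follow Slfn5. Their sum was 10.8 CPM in replicate 1 and 1.43 CPM, the lowest, in replicate 3, with Slfn5 at 1.4 and 1.37 CPM. With the 7 markers as a covariate the log2 fold change of Slfn5 was 0.6 (edgeR adjusted p = 0.547). Whether leukocytes were a source of Slfn5 was not tested.

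Among the intermediate members, Slfn3 fell. Slfn3 (ENSMUSG00000018986, 83082156 to 83105980, plus strand) has been linked to differentiation of the rodent intestinal epithelium. It had 80, 84 and 101 counts in AAV-iIL12 and 152, 148, 165 and 153 in AAV-iLuc, or 4.87, 4.56 and 5.54 CPM against 7.89, 8.11, 9.82 and 7.88 CPM. Every AAV-iIL12 library lay below every AAV-iLuc library. The mean was 4.99 ± 0.504 CPM (SD, n = 3) against 8.42 ± 0.935 CPM (SD, n = 4), a log2 fold change of -0.75 ± 0.13 (SE), or 0.594-fold (edgeR adjusted p = 0.00111). The value was -0.78 without AAV-iLuc replicate 1.

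Slfn4 (ENSMUSG00000000204, 83066012 to 83081042, plus strand), known from myeloid cells, where it is strongly induced by interferon, was close to absent. It had 2, 1 and 2 counts in AAV-iIL12 and 4, 0, 4 and 4 in AAV-iLuc, 5 against 12 in all. Scaled to the totals of 55040750 and 71766886 counts, the ratio was 0.543 with an exact 95% interval of 0.15 to 1.66, which covers counting error only. A difference was not detectable at this depth.

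Of the short members, Slfn2 was higher in AAV-iIL12 at very low counts. Slfn2 (ENSMUSG00000072620, 82955938 to 82961504, plus strand) holds T cells in quiescence and shields transfer RNAs from the ribonuclease angiogenin. It had 33, 11 and 18 counts against 14, 1, 2 and 2, or 2.01, 0.597 and 0.988 CPM against 0.727, 0.0548, 0.119 and 0.103 CPM. AAV-iLuc replicate 1 lay inside the range of the AAV-iIL12 libraries and the other AAV-iLuc libraries lay below it. The mean was 1.2 ± 0.729 CPM (SD, n = 3) against 0.251 ± 0.319 CPM (SD, n = 4), a log2 fold change of 2.18 ± 0.7 (SE) or 4.52-fold (edgeR adjusted p = 0.0262).

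The call of Slfn2 depended on which libraries were used. Without AAV-iLuc replicate 1 its log2 fold change was 3.59 ± 0.65 (SE), or 12.1-fold (edgeR adjusted p = 0.00151). The call was lost without AAV-iIL12 replicate 1 (1.61, edgeR adjusted p = 0.117) and without AAV-iLuc replicate 2, 3 or 4 (1.85, 1.97 and 1.91, edgeR adjusted p = 0.0584, 0.065 and 0.0645). AAV-iIL12 replicate 1 and AAV-iLuc replicate 1 had the highest sums of the 7 less abundant leukocyte markers in their groups (11.1 and 10.8 CPM). They also had the highest Slfn2, and the highest Lyz2, a myeloid gene, at 4.32 and 6.49 CPM. The other libraries had few Slfn2 counts. AAV-iIL12 replicates 2 and 3 had sums of 7.0 and 4.66 CPM and Slfn2 at 0.597 and 0.988 CPM (11 and 18 counts), the opposite order. In AAV-iLuc replicates 2, 3 and 4, Slfn2 had 1, 2 and 2 counts, too few to be ordered. With the 7 markers as a covariate the log2 fold change of Slfn2 was 1.38 (edgeR adjusted p = 0.0553). Whether leukocytes were a source of Slfn2 was not tested.

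Slfn1 (ENSMUSG00000078763, 83007675 to 83013496, plus strand), the founding member of the family, first described in developing T cells, had 1, 1 and 0 counts in AAV-iIL12 and 4, 0, 1 and 0 in AAV-iLuc. The ratio of 2 to 5 counts, scaled to the totals, was 0.522 with an exact 95% interval of 0.0497 to 3.19. Its level could not be compared at this depth.

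Other genes that carry the Schlafen name gave no more than a few counts. Slfn14, a long-form member expressed in platelets and red cell precursors, had 4 counts against 7, a ratio of 0.745 with an exact 95% interval of 0.16 to 2.93. Slfnl1, a more distant gene on chromosome 4, had 2 counts against 3. The pseudogene Slfn10-ps and Slfn5os, annotated antisense to Slfn5, were listed at 0 in all 7 libraries.

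To compare levels between genes, CPM was divided by the exon length given in the files (RPKM, which is CPM per kilobase). In AAV-iLuc, Slfn9 stood first at 6.25 ± 0.814 RPKM and Slfn3 second at 2.47 ± 0.274 RPKM (SD, n = 4). Slfn8, Slfn2 and Slfn5 followed at 0.219 ± 0.184, 0.151 ± 0.192 and 0.141 ± 0.0933 RPKM and did not differ from each other beyond their spread. Slfn4 and Slfn1 came last, at 0.0411 ± 0.0276 and 0.0358 ± 0.0526 RPKM, and could not be ordered.

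In AAV-iIL12 the order at the top changed: Slfn9 was at 7.39 ± 0.427 RPKM and Slfn8 at 6.59 ± 0.946 RPKM (SD, n = 3). These overlapped, with Slfn8 above Slfn9 in replicate 1 (7.5 against 6.98 RPKM) and below it in replicates 2 and 3. Slfn3 followed at 1.46 ± 0.148 RPKM, above Slfn2 in all 3 libraries, at 0.72 ± 0.438 RPKM. Slfn5 was at 0.338 ± 0.262 RPKM, which overlapped with Slfn2. Slfn4 and Slfn1 were at 0.024 ± 0.00908 and 0.0206 ± 0.0179 RPKM.

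**Figure D2:**
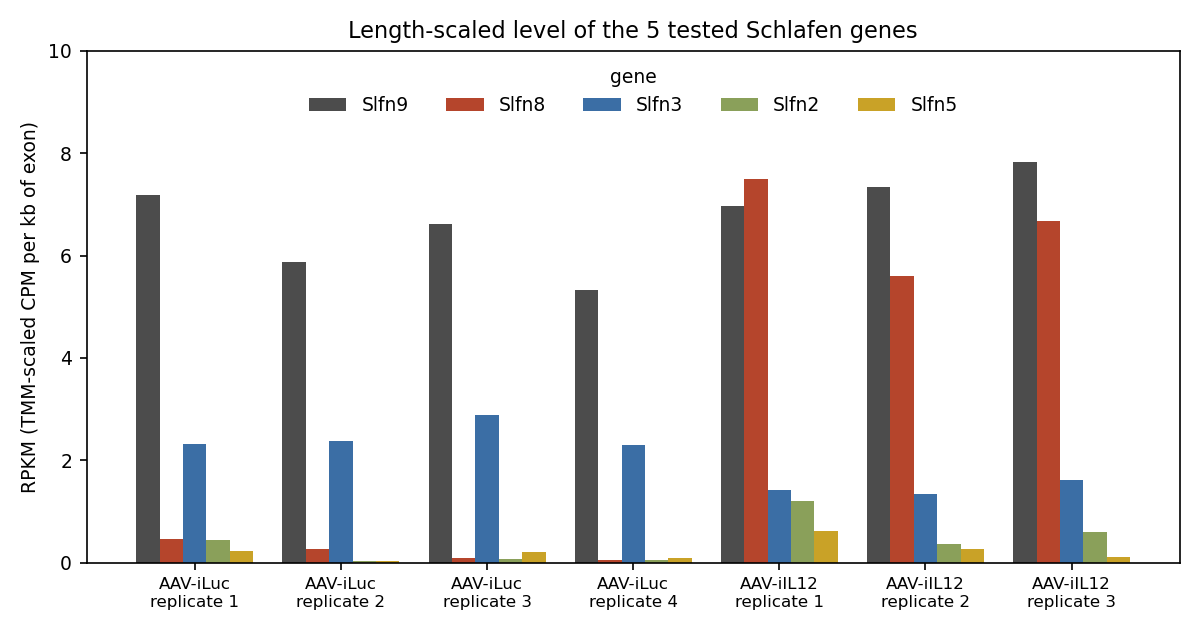
RPKM (TMM-scaled CPM per kilobase of exon, y axis) of the 5 tested Schlafen genes in each of the 7 libraries (x axis), 1 bar per gene and library. In the AAV-iLuc libraries Slfn9 is the tallest bar and Slfn3 the next, and in the AAV-iIL12 libraries Slfn8 stands beside Slfn9, at 5.61 to 7.5 RPKM against 6.98 to 7.83 RPKM.

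The make-up of the family differed accordingly. The summed level of the 7 genes was 16.5 ± 1.44 RPKM in AAV-iIL12 (SD, n = 3) and 9.3 ± 1.31 RPKM in AAV-iLuc (SD, n = 4), with no overlap. Slfn8 made up 39.7 ± 2.33% of that sum in AAV-iIL12 and 2.26 ± 1.72% in AAV-iLuc. The share of Slfn9 was 44.9 ± 5.12% against 67.2 ± 0.937%, and that of Slfn3 was 8.86 ± 0.813% against 26.8 ± 3.62%. Slfn2 held 4.23 ± 2.28% against 1.49 ± 1.72% and Slfn5 2.01 ± 1.43% against 1.44 ± 0.833%. The shares depend on the length used: with coding length in place of exon length, Slfn8 made up 32.2 ± 2.38% of the sum in AAV-iIL12 and 1.65 ± 1.26% in AAV-iLuc.

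The ratio of Slfn8 to Slfn9 within a library, on the RPKM scale, was 1.07, 0.763 and 0.852 in AAV-iIL12 and 0.0637, 0.0456, 0.0154 and 0.00945 in AAV-iLuc. All libraries of one group lay above all of the other. Whether members changed by different amounts was tested on log2 ratios for the 15 pairs among the 6 members with at least 10 counts (two-sided exact permutation test over the libraries, where the smallest p is 0.0286). No pair passed after Benjamini-Hochberg adjustment over the 15 pairs (smallest adjusted p = 0.107), and 4 pairs reached the smallest unadjusted p that this exact test allows, 0.0286. These were Slfn8 with Slfn9, Slfn8 with Slfn3, Slfn8 with Slfn4, and Slfn3 with Slfn9. With a prior count of 0.5 in place of 2, 3 pairs had an unadjusted p under 0.05. A change in a single member could not pass this adjustment, because too few pairs would reach the smallest p. That no pair passed is therefore no sign that the members changed alike. The log2 difference between Slfn8 and Slfn9, in CPM with a prior count of 2, was -0.71 ± 0.25 in AAV-iIL12 (SD, n = 3) and -5.55 ± 1.06 in AAV-iLuc (SD, n = 4), a change of 4.83. That between Slfn3 and Slfn9 was -3.12 ± 0.1 against -2.13 ± 0.2, a change of -0.99.

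Near-identical members can lose or exchange reads in counting. The coding sequences of Slfn8 and Slfn9 were 92.7% identical over 2730 aligned bases, and those of Slfn3 and Slfn4 92.2% over 1778. The long members differed more from Slfn5, at 64.6% for Slfn8 and 64.3% for Slfn9. Of all stretches of 50 coding bases, 16.4% of those in Slfn8 and 20.9% of those in Slfn9 occurred in another transcript of the family, most often in Slfn10-ps. The figures were 13.5% for Slfn3, 18.6% for Slfn4, 6.36% for Slfn2, 1.14% for Slfn1 and 0 for Slfn5. At 100 bases they fell to 4.22% for Slfn8, 8.29% for Slfn9, 0.193% for Slfn2 and 0.117% for Slfn4, with none in Slfn1, Slfn3 and Slfn5. The counting call in the file headers sets nothing for multimapping reads, so levels of these members, and ratios between Slfn8 and Slfn9, are uncertain to that extent.

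The 7 genes lie within 264 kb of chromosome 11 (82842175 to 83105980, GRCm39), in the order Slfn5, Slfn9, Slfn8, Slfn2, Slfn1, Slfn4 and Slfn3. Closeness did not always go with a like change. Slfn9 and Slfn8 are separated by 10.3 kb and had log2 fold changes of 0.24 and 4.88. Slfn4 and Slfn3 are separated by 1.11 kb, but Slfn4 was not tested, so the changes of that pair could not be compared. Slfn2, the other member that rose, is next to Slfn8 in this order, 44.3 kb beyond it and 46.2 kb before Slfn1. None of the 16 other annotated genes within or overlapping the cluster had enough counts to be tested.

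Of 63 further genes within 500 kb of the cluster, those 16 included, 18 were tested, and 2 rose and 3 fell (5 with scaling by library size or upper quartile), with a median log2 fold change of -0.14. With TMM scaling, both counts lie below the shares over all genes tested, 23.5% higher and 23.7% lower. The count of 5 was not set beside a share from its own scaling. Ccl5, a chemokine for T cells, rose from 9.72 ± 2.98 CPM (SD, n = 4) to 46.8 ± 13.9 CPM (SD, n = 3), a log2 fold change of 2.26 ± 0.23 (SE, edgeR adjusted p = 4.26e-05). Heatr9, next to Ccl5, rose from 0.136 ± 0.108 to 1.92 ± 0.967 CPM, by 3.75 ± 0.58 on the log2 scale (SE, edgeR adjusted p = 0.000506). Lig3, a DNA ligase, Nle1, a ribosome assembly factor, and Taf15, an RNA-binding protein, fell by 0.24, 0.3 and 0.29 on the log2 scale. Directly after the cluster, AI662270 had a log2 fold change of -0.17 and did not pass (edgeR adjusted p = 0.0841), and before it Unc45b had 3 counts in all and was not tested.

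**Figure D3:**
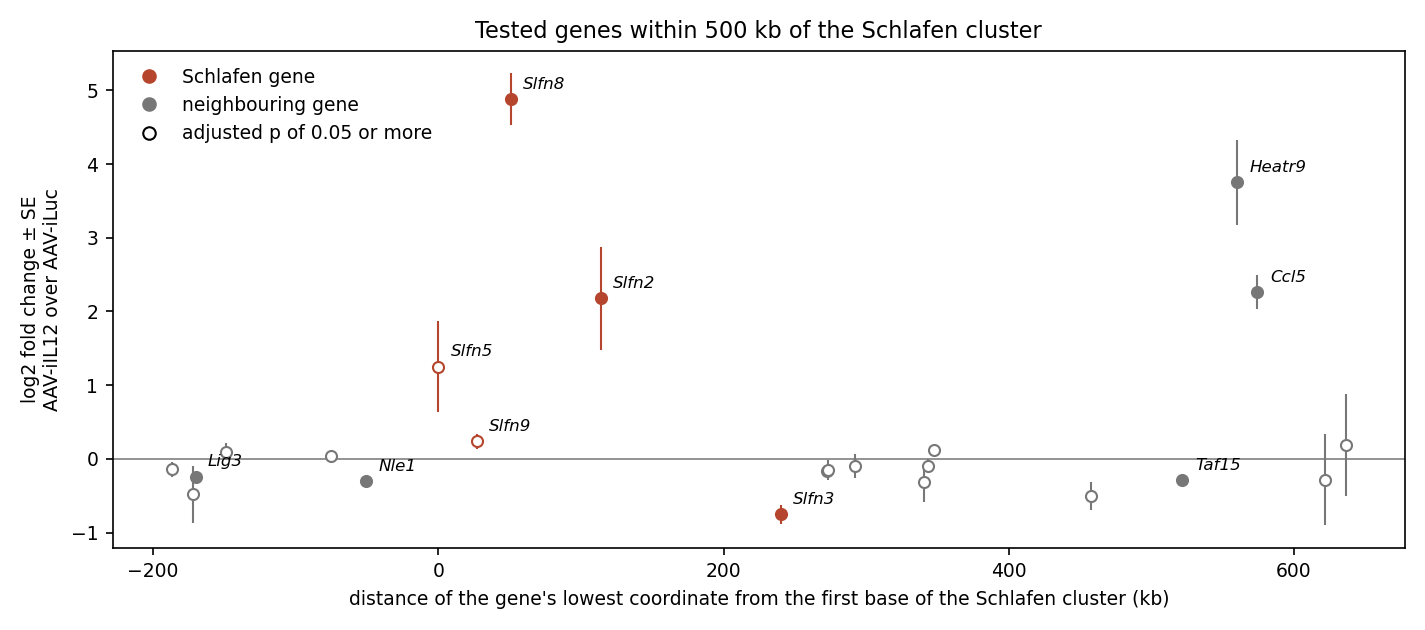
log2 fold change with its SE, AAV-iIL12 over AAV-iLuc (y axis), of the 5 tested Schlafen genes and the 18 tested genes within 500 kb of them, against distance along the chromosome in kb (x axis); open points did not pass the test. Slfn8 at 4.88 stands between Slfn9 at 0.24 and Slfn2 at 2.18, and the other rises near the cluster are Heatr9 and Ccl5 at its far right.

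Genes of the pathways in which Schlafen proteins act were counted in 4 lists. Over all genes tested, 23.5% rose and 23.7% fell by the same test, and each list is to be read beside these shares. Interferon receptors and their signalling carry the signal that induces many Schlafen genes, and all 15 genes of that list were tested: 12 rose, 1 fell (2 with scaling by library size or upper quartile) and 2 did not pass, with a median log2 fold change of 1.28. Irf1, a transcription factor induced by interferon gamma and the most abundant gene of the list, rose from 46.4 ± 49.5 to 899.5 ± 16.8 CPM (log2 fold change 4.27, edgeR adjusted p = 0.000313). AAV-iLuc replicate 1 held 120.5 CPM of Irf1 and the other AAV-iLuc libraries 16.8 to 24.45 CPM, and without replicate 1 the log2 fold change was 5.38. Irf7, a factor of the type I interferon response, rose from 6.01 ± 3.23 to 98.2 ± 22.9 CPM (4.02). Socs1, a feedback inhibitor of the receptors, rose from 1.6 ± 0.764 to 26.2 ± 3.83 CPM (4.03), and the kinase Jak2 from 49.2 ± 3.91 to 119.5 ± 5.66 CPM (1.28). Ifngr2, a receptor chain for interferon gamma, fell by 0.23 on the log2 scale.

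Of 12 genes that restrict, cut or modify transfer RNA and viral RNA, the processes of the Schlafen core, 11 were tested: 7 rose, 3 fell and 1 did not pass, with a median of 0.51. The count that fell lies near the 23.7% of all genes tested that fell, where 23.5% rose. Samhd1, which hydrolyses deoxynucleotides, rose from 50.3 ± 9.2 to 330.5 ± 23.0 CPM (log2 fold change 2.72, edgeR adjusted p = 9.54e-07). Eif2ak2, the kinase PKR, rose from 58.9 ± 7.61 to 173.4 ± 15.2 CPM (1.56). The 3 that fell act on transfer RNA maturation and modification: Nsun2 by 0.41, Elac2 by 0.31 and Trmt2a by 0.36 on the log2 scale. Ang, the gene of angiogenin, did not have enough counts.

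All 12 genes of replication stress and fork protection, the setting in which human SLFN11 acts, were tested: none rose, 9 fell and 3 did not pass, with a median of -0.72. Of all genes tested, 23.7% fell and 23.5% rose. Chek1, the checkpoint kinase, fell from 24.3 ± 3.33 to 7.33 ± 0.549 CPM (log2 fold change -1.72, edgeR adjusted p = 5.87e-06). Cdt1, a replication licensing factor that SLFN11 is known to target for degradation, fell by 1.62, and Topbp1, an activator of the ATR kinase, by 1.06 on the log2 scale. Ddb1, the most abundant of the list, had a log2 fold change of -0.15 and did not pass (edgeR adjusted p = 0.0587).

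Of 12 genes that hold T cells in quiescence, the role of Slfn2, all were tested in these tumour cells: 8 rose, none fell (1 with scaling by library size or upper quartile) and 4 did not pass, with a median of 0.39. Among all genes tested, 23.5% rose and 23.7% fell. Btg2 and Btg1, which limit proliferation by speeding messenger RNA decay, had log2 fold changes of 1.26 and 1.02, and Cdkn1b and Foxp1 of 0.44 and 0.43, all past the threshold. These genes are broadly expressed, and the cells in which they rose were not tested. The 14 T and NK cell markers summed to 6.59 to 10.3 CPM with AAV-iIL12 and to 1.81 to 4.52 CPM with AAV-iLuc. Of them, Cd3d, Cd3e and Cd3g together reached at most 0.597 CPM in any library. Cd2, Cd8a, Gzmb and Klrk1, too low to be tested, were higher in every AAV-iIL12 library than in any AAV-iLuc library. So was Lck, the 1 tested. Over all genes tested, 52.5% had groups that did not overlap. For Klrk1 the nearest libraries, AAV-iIL12 replicate 3 and AAV-iLuc replicate 1, both had 2 counts. Cd4, Cd247 and Ncr1 had lower means with AAV-iIL12, for Cd4 and Ncr1 from 2 counts each in AAV-iLuc replicate 1 alone. Of the 4 lists, the interferon list had the largest median and that of replication stress the only negative one, where the median of all genes tested was -0.01.

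For each member that passed the test, the 3 genes with the most similar profile over the 7 libraries were found by the Euclidean distance between centred log2 CPM profiles. The profiles hold the difference between the groups. The genes found for Slfn8, Slfn3 and Slfn2 therefore have fold changes like those of the member by choice, which is no separate result. Slfn8 lay nearest to Gbp3 (distance 0.54), Il12rb1 (0.56) and Oasl2 (0.62). Gbp3, a guanylate-binding protein, had 221.3 ± 20.2 CPM with AAV-iIL12 against 10.1 ± 9.45 CPM with AAV-iLuc, and Il12rb1, a subunit of the interleukin 12 receptor, at 137.3 ± 5.68 against 4.29 ± 3.3 CPM. Oasl2, of the oligoadenylate synthetase-like family, was at 201.5 ± 26.2 against 7.07 ± 6.72 CPM. The log2 fold changes of Gbp3, Il12rb1 and Oasl2 were 4.44, 4.99 and 4.82, and 5.3, 5.66 and 5.73 without AAV-iLuc replicate 1. Gbp3 and Oasl2 belong to gene families too, and reads shared within those families were not measured here.

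Of the genes nearest to Slfn3, Lrrc27 (distance 0.15) and 2410004B18Rik (0.19) had log2 fold changes of -0.69 and -0.65. Those nearest to Slfn2 were Msr1, a macrophage scavenger receptor (0.64), Tgm2, a transglutaminase (0.78), and Cybb, a subunit of the phagocyte oxidase (0.86). Msr1 was at 1.13 ± 0.445 against 0.251 ± 0.286 CPM and Tgm2 at 13.9 ± 6.53 against 3.36 ± 1.88 CPM, and both rose, although the call of Msr1 was lost without AAV-iIL12 replicate 1 (edgeR adjusted p = 0.064) and its log2 fold change of 2.1 was 3.27 without AAV-iLuc replicate 1. Cybb, at 1.73 ± 1.26 against 0.471 ± 0.725 CPM, did not pass (edgeR adjusted p = 0.0997), and it passed without AAV-iLuc replicate 1 (log2 fold change 3.88, edgeR adjusted p = 0.00157).

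**Figure D4:**
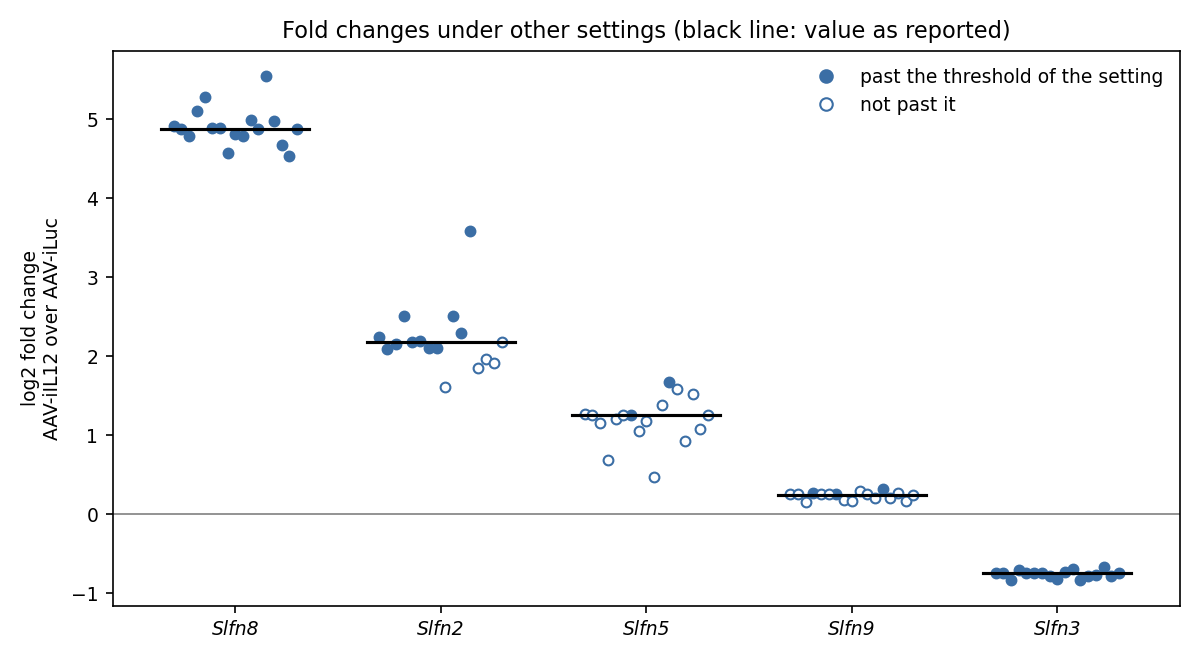
log2 fold change of the 5 tested Schlafen genes (y axis, AAV-iIL12 over AAV-iLuc) under the other scalings, filters, tests, threshold and block and with each library left out, 1 point per setting; the black line is the value reported and open points did not pass the threshold of their setting. Both fits with a leukocyte covariate are left out of the plot. Slfn8 passes in every setting shown, between 4.54 and 5.55, as does Slfn3, and Slfn2 is the member with the most lost calls.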

How the data were processed

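RNA was measured in 7 libraries, 3 from AAV-iIL12 and 4 from AAV-iLuc tumours. The deposited values are raw counts per gene, which the authors made with featureCounts 1.6.0, reverse-stranded and paired-end, over GENCODE vM32, per the file headers. FastQC 0.11.8, STAR 2.7.9a, GRCm39, edgeR and limma are named in the submitters' processing notes. Symbols came from GENCODE vM21 by identifier (52029 of 56953 identifiers, 99.4% of counts). Every row named a gene.

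Counts were tested with edgeR 4.0.16 (R 4.3.3): TMM, filterByExpr, quasi-likelihood F test, Benjamini-Hochberg adjustment over 13990 genes, threshold 0.05. The SE came from the F statistic. The script was tested on simulated data. Alternatives used DESeq2 1.42.0, limma 3.58.1 (voom), other scalings, filters and thresholds, a replicate block, leukocyte covariates, and each library left out. The members and lists were chosen with earlier results of these data known. Genes were named by rule: all members, called or adjacent neighbours, the 3 smallest p and the most abundant gene of each list, and the 3 nearest profiles. Elac2, Trmt2a, Ifngr2, Ang, Unc45b, C1qb, Ptpn6, Arhgdib, Lcp1, Lck and Egfl7 were named after their values were seen. So were Cd2, Cd8a, Gzmb, Klrk1, Cd4, Cd247 and Ncr1. No library was a duplicate of another (chi-square per degree of freedom 3.45 to 13.86 within groups). The labels give no batch. Promoter windows are RefSeq's, on GRCm38.p6, and their coordinates were not mixed with those of the files. Protein sequences were not used here, and 2 genes that the rule takes are not reported here.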

Additional observations from a re-analysis of the deposited data

Results flagged for a closer look

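In a group of 4 libraries, 1 library can stand further from the others than the 95% critical value of Dixon's test allows, as a gap over the range. Of 18 such groups tested, 5 were flagged, where chance flags about 1 in 20. Slfn2 stood at 0.727 CPM in AAV-iLuc replicate 1, and the next highest library of the group was at 0.119 CPM. The Slfn2 share of the summed Schlafen RPKM was likewise high in that library, at 4.06% against 0.784% for the next. Slfn3 was at 9.82 CPM in AAV-iLuc replicate 3 and at 8.11 CPM in the next library. Slfn4 was at 0.0 CPM in AAV-iLuc replicate 2, where the other libraries of the group had 0.206 CPM or more, a difference of 0 against 4 counts. The summed leukocyte markers were low in AAV-iLuc replicate 4, at 385 CPM against 408 CPM for the next library.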

How the results depend on the processing

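Slfn8 and Slfn3 kept their direction in all 19 alternatives and their calls in 18. The exception was the planned covariate from all 10 leukocyte markers, most of which is Ptpn6, Arhgdib and Lcp1. It separates the groups fully, and 1 gene in all was called with it in place of 6608 (4808 with the 7-gene covariate, chosen after seeing the data). With that planned covariate, Slfn8 was at 4.02 (adjusted p = 0.346), Slfn3 at -0.7, Slfn2 at -1.39 and Slfn5 at -4.32, the last 2 reversed, and Schlafen genes and genes of every list had 0 calls in either direction. Btg2 (-0.46), Cybb (-2.83), Ddb1 (0.02), Lig3 (0.06), Msr1 (-0.51), Nsun2 (0.15) and Tgm2 (-0.92) were reversed there too.

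Of the Schlafen genes, 1 instead of 2 was higher with the 1 CPM filter (which drops Slfn2), the threshold of 0.01 (Slfn2 still 2.18) or the 7-gene covariate (Slfn2 1.38), and 4 without a filter, where Slfn5 (1.25, adjusted p = 0.0202) and Slfn9 (0.25, adjusted p = 0.0314) also passed. Slfn9 passed with quality weights (0.27, adjusted p = 0.0268). With 1 library left out, the count higher was 1 to 3, and log2 fold changes ran from 4.54 to 5.55 (Slfn8), 1.61 to 3.59 (Slfn2), 0.47 to 1.67 (Slfn5), 0.17 to 0.32 (Slfn9) and -0.83 to -0.67 (Slfn3). Replication genes higher were 1 instead of 0 with quality weights or no filter (0 to 1 with a library left out). Interferon genes lower were 2 instead of 1 with library size, upper quartile or quality weights (1 to 2 with a library left out). With library size or upper quartile, 1 instead of 0 quiescence genes and 5 instead of 3 neighbours were lower. With coding length, the Slfn8 share in AAV-iIL12 was 32.2% and the Slfn9 shares 53.0% and 71.6%. The cause of these changes was not tested. Coding length from RefSeq proteins was not run.

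Whether the replicate numbers pair the libraries could not be decided. Deviations of same-numbered libraries from their group means correlated at 0.088, 0.034 and -0.049. The value of replicate 1, 0.088, was the highest between libraries of different groups. AAV-iIL12 replicates 2 and 3 correlated better with another number. Correlations this weak, from so few libraries, cannot show or exclude pairing. With the replicate number as a block, 5660 genes were called, and no Schlafen call changed (Slfn8 4.57, Slfn2 2.11, Slfn3 -0.78, Slfn5 1.05, Slfn9 0.18). The exact test of pairs cannot reach 0.05 with a library left out. Counts of 0 to 33 per library limit Slfn1, Slfn2 and Slfn4.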
